A study of Homo sapiens with 4 samples.

Results

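The genes described here encode the proteins that fuse transport vesicles with their target membranes: the synaptotagmins (SYT), the syntaxins (STX), the vesicle-associated membrane proteins (VAMP), the SNAP25-like proteins and the syntaxin-binding proteins (STXBP). They were chosen by the gene name printed on the array (SYT, STX, VAMP or STXBP followed by a number, or SNAP23, SNAP25, SNAP29 or SNAP47), a rule that reads no measured value. The choice gave 79 of the 50599 probes, for 51 of 36337 gene names. RNA came from GIST-T1, 1 established human cell line derived from a gastrointestinal stromal tumor (GIST) that carries an activating KIT mutation, so that the results describe this line alone. Cells (3000000 per transfection) were electroporated with 100 pmol of a mimic of miR-34a (a synthetic copy of the mature miRNA) or with the same amount of a control mimic (Negative Control #1), and total RNA was taken after 48 h. There were 2 arrays per condition, and neither untransfected cells nor proteins were examined. The comparison asked which of these transcripts were present in GIST-T1 cells and whether they differed after transfection of the mimic.

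Membrane fusion is driven by SNARE proteins, which zip together from opposite membranes. An R-SNARE on the vesicle (a VAMP) pairs with Q-SNAREs on the target membrane (a syntaxin with a SNAP25-like protein, or several syntaxin-like proteins inside the cell). Syntaxin-binding proteins hold or release the syntaxins, and synaptotagmins such as SYT1 sense calcium and trigger release. Neurons and endocrine cells use SYT1, STX1A, VAMP2 and SNAP25 for regulated release, while other members serve traffic among the ER, Golgi, endosomes and plasma membrane in most cells. SYT1 and STX1A are reported targets of miR-34a.

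The guide strand of miR-34a is shown because its seed, bases 2 to 8 from the 5′ end (in capitals), is what first pairs with a target. Human miR-449a and miR-449b-5p share that seed and are shown beside it to mark the bases they have in common. They are not the whole family: miR-34b and miR-34c, also of the miR-34 family, are not shown. The mature sequences are those of RefSeq (build GRCh38.p14), in which miR-34a-5p lies at chr1:9151735-9151756 on the minus strand.
hsa-miR-34a-5p: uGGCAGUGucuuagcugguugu
hsa-miR-449a: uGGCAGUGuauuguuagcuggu
hsa-miR-449b-5p: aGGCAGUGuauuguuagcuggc
The site that pairs with this seed reads CACTGCC in a transcript. None of the 79 member probes, each 60 bases long, held CACTGCC or ACTGCCA (bases 2 to 7 followed by an A), against 0.435% and 0.393% of all probes, and none held either reverse complement. The core ACTGCC, which lies within both longer matches, occurred in 1 member probe (1.27%, against 1.3% of all probes). That probe belongs to STXBP6, its 30 bases around the match (in capitals) are printed here, and its values follow with the syntaxin-binding genes.
STXBP6, bases 23 to 52 of the probe: aaatgttgagaaACTGCCtatcctggtgac
A probe covers only a short part of a transcript, and sites elsewhere in these transcripts were not analysed here.

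On each array 41.8% to 45.2% of all probes were well above background, between 43 and 47 of the member probes among them, and 0 spots were saturated. All 4 arrays lay on 1 slide read in 1 scan. A probe was tested when 1 condition or both had it well above background on each of their arrays, which held for 21474 probes. The GIST markers KIT, PDGFRA, ANO1, ETV1, PRKCQ and CD34 were well above background on all 4 arrays, as were EPCAM and DES, named as markers of epithelium and smooth muscle. PECAM1, MYH11 and the neuroendocrine markers CHGA, SYP and INSM1 were on no array, CHGB was on 1, and PTPRC on at most 2 for any probe. In RNA from whole cultures, fewer cells with a transcript and less of it per cell cannot be told apart. The labels do not say that replicates were separate cultures, so p-values measure the spread between these arrays.

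GIST-T1 cells carried transcripts of most of the SNARE machinery but of few synaptotagmins. Of the 51 genes, 32 (62.7%) had a tested probe, against 44.6% of all gene names on the array, and 45 of the 79 probes (57%) were tested, against 42.4% of all probes. All 6 endosomal and trans-Golgi syntaxins, all 3 of the ER and Golgi and all 4 SNAP25-like genes were among the 32. Of the 7 R-SNAREs, 5 were tested, and of the 7 plasma membrane syntaxins and the 7 syntaxin-binding genes 5 each. Only 4 of the 17 synaptotagmins were tested, namely SYT3, SYT8, SYT11 and SYT13. No array had a probe well above background for SYT1, SYT4, SYT5, SYT6, SYT7, SYT10, SYT14, SYT15, SYT16, SYT17, STX11, STX19, VAMP1, VAMP5, STXBP2 or STXBP5L. For SYT2, SYT9 and SYT12 it was a single array per probe. The adjacent R-SNARE genes VAMP8 and VAMP5 fell on either side of this line: the VAMP8 probe (hg19 chr2:85809032-85809091) was well above background on all 4 arrays and the VAMP5 probe on none. A probe below this limit does not show that a transcript is absent.

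**Figure D1:**
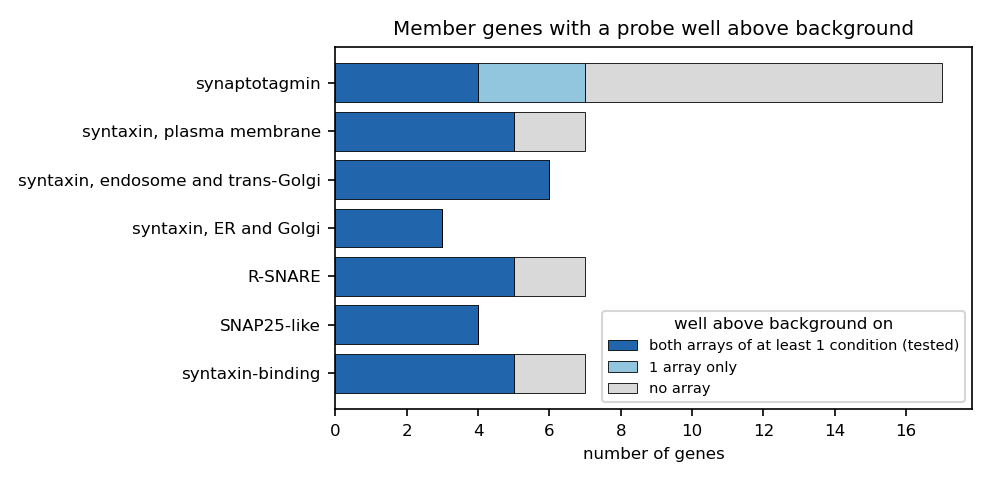
Number of member genes in each family (horizontal axis) by whether a probe was tested, was well above background on 1 array only, or on none. The synaptotagmins hold 10 of the 16 genes seen on no array, whereas every endosomal, ER and Golgi syntaxin and every SNAP25-like gene was tested.

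After the miR-34a mimic these genes lay on both sides of the control with mostly small differences, and no member differed at an adjusted p under 0.05. A difference is given throughout as the log2 processed signal, scaled to the 75th percentile of its array, in the mimic minus the negative control, with its standard error (SE) by limma. Of the 45 tested probes, 0 lay below and 1 lay above the control by more than 1.5-fold, against 4.8% below and 2.11% above among all tested probes. Among them 20 were lower and 25 higher at any size, against 51.5% lower and 48.5% higher over all tested probes. The median difference was 0.04, against -0.01 over all tested probes. By the tested probe with the highest mean signal per gene, 0 of the 32 genes were lower and 0 higher by more than 1.5-fold. Of all tested gene names, read by the same rule, 4.83% were lower and 1.95% higher by that much. By limma with Benjamini-Hochberg adjustment over all 21474 probes, 0 member probes passed an adjusted p of 0.05 (background 0%). The smallest adjusted p was 0.0948 among the members and also among all tested probes. Since no probe on the array passed, this threshold does not set the members apart from other genes. At an unadjusted p under 0.05 there were 3 lower and 8 higher member probes, which is 6.67% and 17.8% of them, against 11.6% and 12.7% of all tested probes. With a variance trend, in which limma lets the spread depend on the mean signal, 1 lower and 3 higher member probes passed an adjusted p of 0.05, on VAMP2, and on STX4, SNAP47 and STXBP6 (background 3.6% lower and 3.81% higher). Both mimic arrays lay below both control arrays on 10 member probes and above them on 17 (background 30.1% and 30.4%). Without 1 array the count of lower probes past 1.5-fold became 1 (mimic 1 or mimic 2 left out) and that of higher probes became 2 (negative control 2 left out). The count of higher probes at the unadjusted threshold fell to 5 without either mimic array and to 2 without negative control 1. The smallest p that an exact permutation test (two-sided) allows for 1 probe in this design is 0.33.

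The intervals show, probe by probe, which sizes of difference the spread between these arrays leaves possible. They are unadjusted and, like the p-values, measure the spread between these arrays and not between separate transfections. For 36 of the 45 member probes (80%) the 95% interval lay wholly within 1.5-fold in either direction, against 68.5% of all tested probes. The interval reached a 1.5-fold decrease on 5 member probes, 1 each of SYT8, VAMP2, VAMP4, SNAP23 and STXBP5. It stayed above that decrease on 88.9% of the member probes, against 79.1% of all tested probes. The median SE over the member probes was 0.08.

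**Figure D2:**
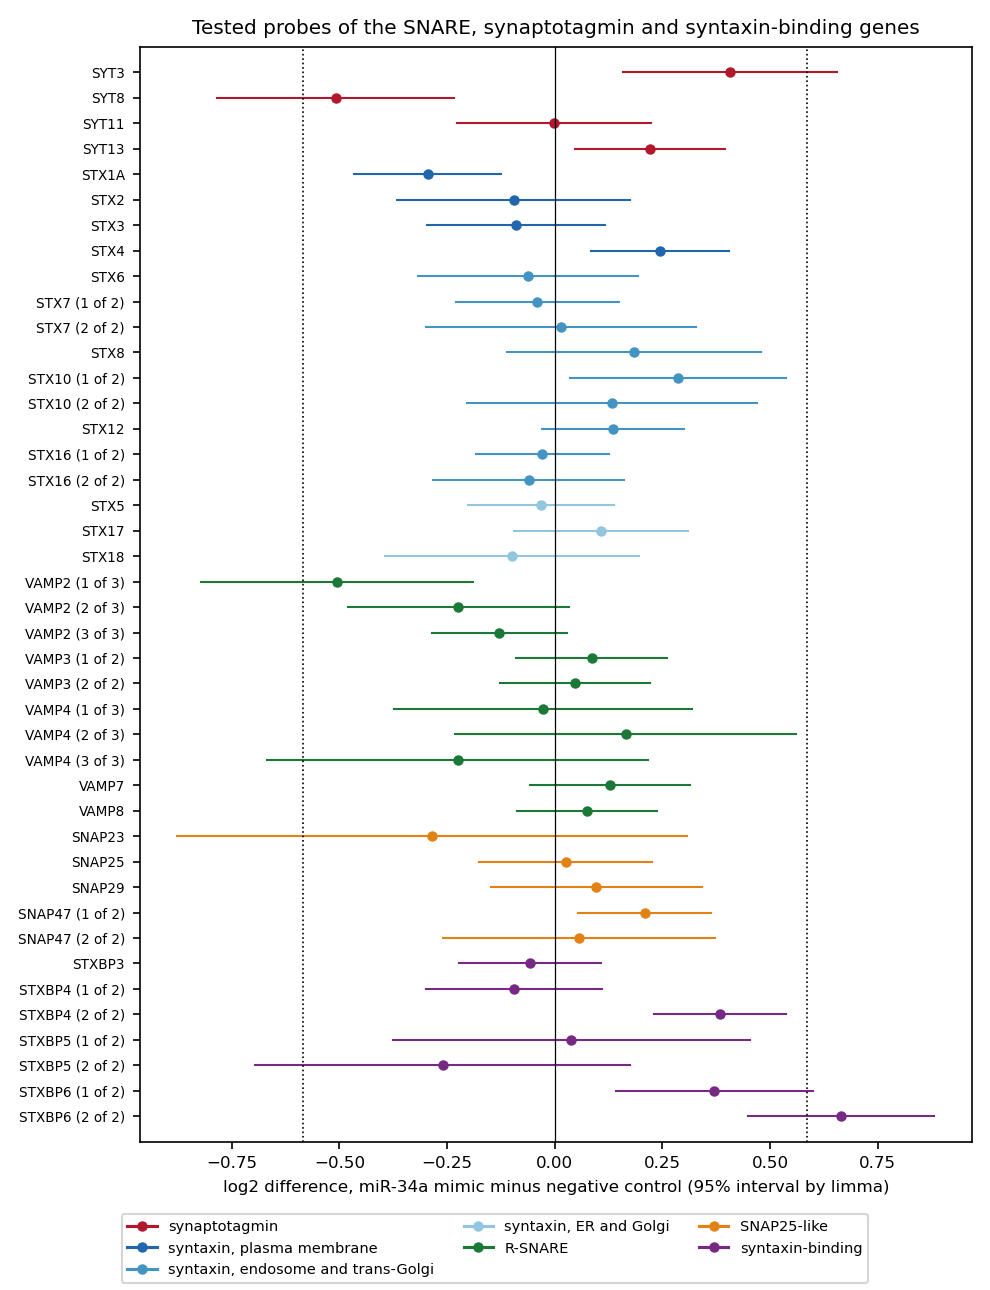
Log2 difference, miR-34a mimic minus negative control (horizontal axis), for the tested member probes whose genes are reported here, with 95% intervals by limma and dotted lines at 1.5-fold. Differences run from -0.51 (SYT8) to 0.66 (STXBP6), and 1 point lies beyond a dotted line.

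SYT1, the calcium sensor of fast synaptic release, was at background on all 4 arrays. Its probe at hg19 chr12:79843822-79843881 had log2 signals of -5.17 and -5.39 after the mimic and -5.43 and -5.38 in the negative control. The other probe, chr12:79258055-79258114, gave -5.07 and -3.98 against -3.84 and -5.01. Every one of these values lay under the lowest signal that counted as well above background on its array, which was between -3.30 and -3.20. A decrease of SYT1 was therefore not detectable here.

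STX1A, the syntaxin that SYT1 works with at the plasma membrane, was somewhat lower after the mimic. The probe at hg19 chr7:73113543-73113602 had log2 signals of 0.56 and 0.54 after the mimic and 0.81 and 0.88 in the control. Both mimic values lay below both control values, and the groups did not overlap. The difference was -0.30 (SE 0.06, 95% interval -0.47 to -0.13), 1.23-fold lower, with an adjusted p of 0.122 by limma. This unadjusted interval leaves out both no change and a 1.5-fold decrease, although the adjusted p did not pass. Neither trait is rare on these arrays. Of all tested probes, 11.6% were lower at an unadjusted p under 0.05 by limma. Both mimic arrays lay below both control arrays on 30.1% of them. Over all alternatives tried the difference stayed between -0.33 and -0.26 and the adjusted p between 0.0629 and 0.374. No array had the second STX1A probe (chr7:73117175-73117234) above that limit.

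Among the synaptotagmins, the values of SYT3, SYT8, SYT11 and SYT13 went different ways. For SYT8, which lacks the calcium-binding residues of SYT1, the probe at hg19 chr11:1857162-1857221 read -1.35 and -1.51 after the mimic and -0.99 and -0.85 in the control. The groups were apart, and the difference of -0.51 (SE 0.09, adjusted p = 0.114 by limma) was 1.42-fold lower. With normexp background correction it was -0.30. No array detected the second SYT8 probe. SYT3, a calcium-binding synaptotagmin, went the other way, with -0.11 and -0.24 after the mimic and -0.64 and -0.51 in the control, a difference of 0.41 (SE 0.09, adjusted p = 0.127 by limma). SYT13, which does not bind calcium, had 2.84 and 2.86 after the mimic against 2.67 and 2.59, a difference of 0.22 (SE 0.06, adjusted p = 0.158 by limma). Each of these pairs of groups was apart. SYT11, another synaptotagmin without calcium binding, overlapped, with 1.80 and 1.68 against 1.69 and 1.79, and its difference was 0.00 with a 95% interval from -0.23 to 0.22.

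The synaptotagmin probes seen on a single array did not point one way. For SYT2, a pair of probes was well above background on miR-34a mimic 1 alone, at -1.43 and -2.75, and another probe on negative control 2 alone, at -2.81. SYT12 was seen on negative control 2 alone (-2.57), and SYT9 on miR-34a mimic 2 alone (-2.97). No fold is given for these genes, since neither condition measured them on both arrays.

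STX4, the syntaxin of the plasma membrane in most cells, was higher on both mimic arrays. Its probe (hg19 chr16:31051321-31051380) had 4.26 and 4.30 after the mimic and 4.04 and 4.03 in the control, with no overlap. The difference was 0.24 (SE 0.05), 1.18-fold higher, with an adjusted p of 0.133 by limma. With the variance trend the adjusted p was 0.0344, and over all alternatives it ran from 0.0344 to 0.394. STX2 and STX3, which also act at the plasma membrane, had differences of -0.09 each (SE 0.09 and 0.07).

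No tested probe of the syntaxins inside the cell differed by more than 1.5-fold. Over the 9 probes of the endosomal and trans-Golgi genes STX6, STX7, STX8, STX10, STX12 and STX16 the differences ran from -0.06 to 0.29, and 4 were lower and 5 higher. The top of this range was STX10, with 1.61 and 1.68 after the mimic against 1.28 and 1.45, a difference of 0.29 (SE 0.09, adjusted p = 0.179 by limma). Its other probe, whose annotated position spans an intron, overlapped between the groups, with a difference of 0.13. For STX8 the spot on negative control 1 carried an outlier flag and was left out, and the difference of 0.19 (SE 0.08, adjusted p = 0.319 by limma) rests on 3 arrays. STX5, STX17 and STX18, of the Golgi, autophagosome and ER, had differences of -0.03, 0.11 and -0.10, with intervals that all lay within 1.5-fold.

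VAMP2, the R-SNARE of synaptic vesicles that also serves in other regulated release, was lower on all 3 of its probes. On the probe at hg19 chr17:8062792-8062851 the log2 signals were 0.87 and 1.12 after the mimic and 1.52 and 1.48 in the control. The probe at chr17:8063794-8063853 gave 0.66 and 0.59 against 0.94 and 0.76. The probe at chr17:8064927-8064986 gave 0.11 and 0.09 against 0.24 and 0.21. On each probe both mimic arrays were below both control arrays, though the sizes were unlike: the differences were -0.51 (SE 0.11), -0.22 (SE 0.09) and -0.13 (SE 0.05), with adjusted p = 0.129, 0.24 and 0.258 by limma. The first was 1.42-fold lower, passed with the variance trend (adjusted p = 0.045) and ranged from 0.045 to 0.383 over the alternatives. The mimic arrays differed by 0.25 on this probe, the control arrays by 0.04. The 3 probes are read from the same RNA samples and are no replicates of one another.

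The other R-SNAREs lay close to 0. VAMP3, which is close to VAMP2 in sequence and serves recycling endosomes, had differences of 0.09 and 0.05 on its 2 probes. VAMP4, of the trans-Golgi network, had 3 probes with differences of -0.03, 0.16 and -0.23, on each of which the groups overlapped. VAMP8, which acts in late endosomes and secretion, had 3.12 and 3.14 against 3.03 and 3.08, a difference of 0.07 (SE 0.06). VAMP7, a lysosomal R-SNARE encoded in a region shared by the sex chromosomes, had 4.23 and 4.31 against 4.17 and 4.11, a difference of 0.13 (SE 0.06, adjusted p = 0.313 by limma).

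All SNAP25-like genes were present and 1 of their 5 probes had an unadjusted p under 0.05. SNAP25, the neuronal Q-SNARE, had -1.05 and -0.96 after the mimic and -0.99 and -1.07 in the control. The groups overlapped, and its difference was 0.03 with a 95% interval from -0.17 to 0.23. SNAP47, which acts mainly on membranes inside the cell, was measured by a probe at hg19 chr1:227968774-227968833, with 4.06 and 4.04 against 3.86 and 3.83. The groups were apart, with a difference of 0.21 (SE 0.05, adjusted p = 0.149 by limma). With the variance trend its adjusted p was 0.0437, the lowest of a range that reached 0.42 over the alternatives. The second SNAP47 probe (chr1:227947078-227947137) overlapped, with a difference of 0.06. SNAP23, the counterpart of SNAP25 in most cells, had the widest interval of its family, with -1.83 and -2.27 against -1.91 and -1.62 and a difference of -0.28 (SE 0.20). SNAP29, which serves autophagosome fusion, differed by 0.10 (SE 0.08).

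The syntaxin-binding genes held the member probe past 1.5-fold, which was not the brighter probe of its gene. STXBP6 encodes amisyn, which carries an R-SNARE-like motif and binds syntaxin in place of a VAMP. On the probe annotated to hg19 chr14:25325283-25326267, which spans an intron, the log2 signals were 0.13 and 0.23 after the mimic and -0.53 and -0.43 in the control. The probe that holds ACTGCC, annotated to chr14:25281886-25288249, also spans an intron. On it the log2 signals were 0.81 and 0.71 after the mimic against 0.33 and 0.45 in the control. Both mimic arrays stood above both control arrays on each probe. The first probe was 1.59-fold higher, with a difference of 0.66 (SE 0.07, 95% interval 0.45 to 0.88, adjusted p = 0.0948 by limma). The second differed by 0.37 (SE 0.08, adjusted p = 0.128 by limma). The first passed with the variance trend (adjusted p = 0.0236) and with normexp background correction, where the difference was 0.48 (adjusted p = 0.0329), and its adjusted p reached 0.357 over the alternatives.

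STXBP4, which binds syntaxin 4, was measured by a pair of probes that disagreed. The probe at hg19 chr17:53240764-53240823 read -0.43 and -0.46 after the mimic and -0.83 on both control arrays, a difference of 0.38 (SE 0.05, adjusted p = 0.0954 by limma). With normexp background correction this difference was 0.22. The probe at chr17:53111534-53111593, annotated to the same transcript, read 0.56 and 0.44 against 0.59 and 0.60, a difference of -0.09 (SE 0.07, adjusted p = 0.451 by limma). Of the 11 member genes with more than 1 tested probe, 7 had all their probes in one direction and 4 (STX7, VAMP4, STXBP4 and STXBP5) had them in both. STXBP3, which binds the syntaxins of the plasma membrane in most cells, had 1.31 and 1.37 against 1.41 and 1.39, a difference of -0.06 (SE 0.06). STXBP5 encodes tomosyn, an inhibitor of SNARE assembly, and its probes differed by 0.04 and -0.26.

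**Figure D3:**
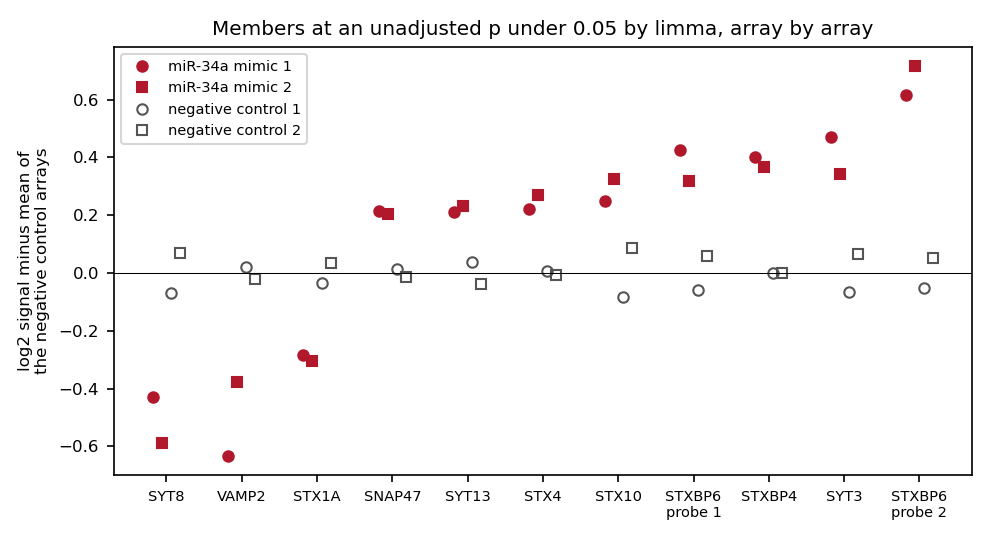
Log2 signal of each array minus the mean of the negative control arrays (vertical axis) for the 11 member probes at an unadjusted p under 0.05 by limma, ordered by their difference. The mimic arrays (filled) lie below both control arrays (open) for SYT8, VAMP2 and STX1A and above them for the other 8 probes.

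Other genes of the fusion machinery were spread on both sides of 0 as well. Of 65 genes for the ATPase NSF and its adaptors, further SNAREs, tethers, Rab proteins and priming factors, all on the array, 51 had a tested probe. By the probe with the highest mean signal 26 were lower and 25 higher, with a median difference of -0.01, and 0 passed an adjusted p of 0.05 by limma. At an unadjusted p under 0.05 there were 5 lower and 5 higher, where 11.9% and 13% of all tested gene names, read by the same rule, were lower and higher. With the variance trend 1 lower and 1 higher passed an adjusted p of 0.05, against 3.96% and 4.28% of all. These shares are no larger in the list than over the array. The genes called with the trend were RIMS2, a scaffold of release sites, with 3.89 and 3.92 against 4.47 and 4.30 (difference -0.47, adjusted p = 0.108 by limma), and EXOC7, a subunit of the exocyst tether, with 5.70 and 5.71 against 5.50 and 5.46 (difference 0.23, adjusted p = 0.14 by limma). Past 1.5-fold were RIMS4, at -0.65 (SE 0.41), and CPLX2, a complexin that clamps SNARE assembly, at 0.61 (SE 0.67), where 4.83% of all gene names were lower and 1.95% higher by that much. In both the groups overlapped and the interval included 0. The other tested CPLX2 probe went the opposite way, at -0.31 (SE 0.22). The count of higher genes became 0 without mimic 2 or without negative control 2, and that of lower genes 0 without negative control 2.

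For comparison, 18 often reported miR-34a targets outside these families were examined with the same fit. Of the 16 with a tested probe, 14 were lower and 2 higher, and the median difference was -0.55. By more than 1.5-fold 6 were lower and 0 higher, against 4.83% and 1.95% of all tested gene names, read by the same rule. Of the 16 targets 0 passed an adjusted p of 0.05 by limma, as did 0 of all tested probes. At an unadjusted p under 0.05 by limma 13 were lower and 1 higher, against 11.9% and 13% of all tested gene names. With the variance trend 12 lower and 1 higher passed an adjusted p of 0.05, against 3.96% and 4.28%. Several of these targets were known to be lower in these data when the list was made. The list therefore describes the arrays, and no test was made between it and the SNARE genes.

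**Figure D4:**
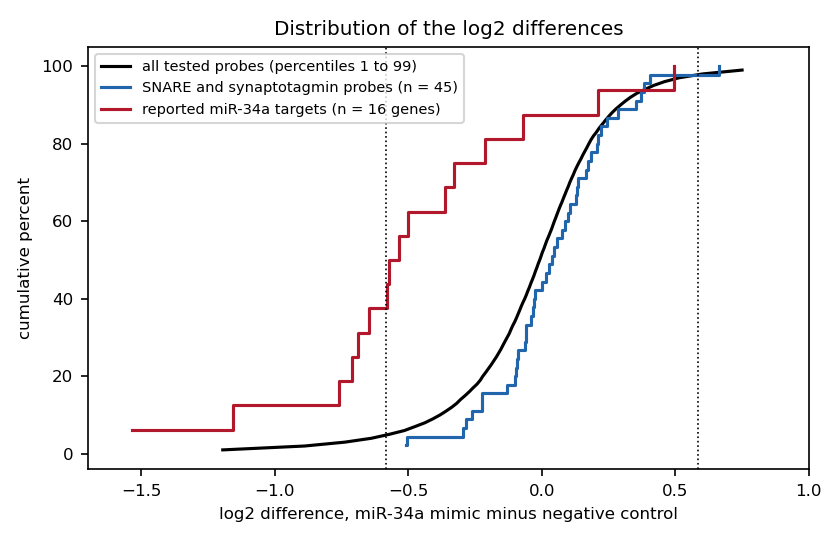
Cumulative percent (vertical axis) of the log2 differences (horizontal axis) of all tested probes, the 45 tested SNARE, synaptotagmin and syntaxin-binding probes and the 16 tested reported miR-34a targets, with dotted lines at 1.5-fold. The member probes lie near the curve of all probes (medians 0.04 and -0.01), and the reported targets lie to the left (median -0.55). Targets are plotted by gene, on the tested probe with the highest mean signal, and the other curves by probe. Several targets were known to be lower in these data when listed, so their position is no independent result.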

How the data were processed

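The authors hybridized Cy3-labeled cRNA (from 100 ng of total RNA) to one-color Agilent SurePrint G3 Human v2 arrays and deposited spot intensities from Agilent Feature Extraction 10.7.3.1, background-subtracted and detrended within the array but not scaled between arrays. They also deposited a table of the same processed intensity, within 0.496% of the scanner values. Flags deposited as 0 or 1 gave detection, saturation and outliers.

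Outlier spots were dropped, spots of a probe were averaged, and the log2 signal was shifted by the array's 75th percentile. limma 3.58.1 (lmFit and eBayes, R 4.3.3) was fitted to all tested probes, with no covariate and Benjamini-Hochberg adjustment over all of them. The fold threshold of 1.5 is the study's. The calculations were tested on simulated data. All 51 symbols and 75 of the 79 probe accessions were found in RefSeq. Positions are the array annotation's (hg19), and exon or UTR annotation of that build was not used here. Named were SYT1, STX1A, members past 1.5-fold or at an unadjusted p under 0.05, and the brightest probe of each family (SYT13, STX4, VAMP7, SNAP47 and STXBP3). Values of further members are given for completeness. Where a gene outside the families had several probes, the tested probe with the highest mean signal was used.

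The member rule reads gene names alone, but these families, the lists and the tests were chosen with earlier results of these data known. Alternatives were quantile normalization, the 75th percentile over detected probes, normexp (offset 50), other filters on dim probes, the authors' table, a replicate block, a variance trend, the methods' t-test and leaving out each array. The number of arrays limits the precision. A few genes are not reported here by name.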

Additional observations from a re-analysis of the deposited data

How the results depend on the processing

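The log2 difference of STX1A and those of the other probes chosen by the naming rule kept its direction under all alternatives tried. Without a filter on dim probes, 8 member probes (10.1%) were lower and 3 (3.8%) higher by more than 1.5-fold, against 13.5% and 4.09% of all probes, and the median difference was -0.029 over 79 probes, since undetected probes enter there. Quantile normalization gave 2 higher member probes past 1.5-fold (4.44%, against 3.27% of all tested probes) and normexp background correction 0 (against 0.317%). At an adjusted p under 0.05 by limma there was 1 member probe with normexp, where 434 of all 21474 tested probes were lower and 443 higher. With the variance trend there were 4 (1 lower and 3 higher), against 3.6% lower and 3.81% higher of all tested probes. Leaving out each array in turn gave 0 to 1 lower and 1 to 2 higher probes past 1.5-fold, 2 to 4 lower and 2 to 6 higher probes at an unadjusted p under 0.05, and a median of 0.02 to 0.05. In these fits 1 condition has a single array, assumed to vary like the other condition's. The methods' t-test called 0 member probes after adjustment. Genes detected numbered 32, or 35 with at least 1 array. The correlation of deviations between arrays with the same replicate number was -0.03 over all tested probes and -0.30 over the 45 member probes. With 1 difference per condition it cannot tell whether the replicate numbers pair the arrays. With the replicate block 0 member probes passed an adjusted p of 0.05 by limma (0 without the block), and the smallest over all tested probes was 0.223. SYT1 has no value to compare, since neither condition measured it.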

Other observations

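Cargo and membrane proteins of secretory vesicles were detected in part in GIST-T1 cells. Of 31 such genes (granins, synaptophysins, synaptogyrins, synapsins, synucleins, SCAMPs and others), 15 (48.4%) had a tested probe, against 44.6% of all gene names, and 11 were well above background on no array. By the probe with the highest mean signal, 6 were lower and 9 higher after the miR-34a mimic, with a median log2 difference of 0.02. By limma 0 passed an adjusted p of 0.05, 2 were lower and 1 was higher at an unadjusted p under 0.05, where 11.9% and 13% of all tested gene names were. With the variance trend 0 lower and 1 higher passed an adjusted p of 0.05, against 3.96% and 4.28% of all. SNCB (beta-synuclein) was the gene past 1.5-fold, with -0.95 and -0.41 against -1.21 and -1.44, a difference of 0.65 (SE 0.23, adjusted p = 0.21 by limma). Without a filter on dim probes 7 genes were lower and 1 higher by that much (13.5% and 4.09% of all probes). With normexp background correction 0 were lower and 0 higher (0.862% and 0.317% of all tested probes). The count of higher genes past 1.5-fold became 0 without mimic 2 or without negative control 2, and that of lower genes, 0 with all arrays, became 1 without mimic 1 or without negative control 2.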
